A study of Mus musculus with 58 samples.

Results

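Control morulae were compared with control fully grown oocytes of the mouse, the pair of stages that lie on either side of the hand-over from maternal to embryonic RNA. The morula group is 2 libraries labelled Pcgf1/6 CTR with a wild type genotype, from embryos of the strain label B6.129 x PWK. The fully grown oocyte (FGO) group is 2 libraries labelled Pcgf1/6 CTR, also wild type, of strain B6.129. The study, which has 58 samples in all, asked how Polycomb marks laid down in oocytes that carry or lack Pcgf1 and Pcgf6 pass to the embryo. RNA was polyadenylated RNA, and the number of oocytes or embryos behind a library is not given in the sources used here, nor whether replicates came from separate animals. The p-values below therefore measure the spread between libraries, which may be technical. Genes were counted as members when each stage had at least 20 counts in total over its 2 libraries, or when 1 stage reached 20 and the change in counts per library total was at least 8-fold, with a floor of 3 counts over a stage. Of 24077 genes in the table, 11024 were members. Of these, 8050 reached 20 counts in each stage, 1118 reached it in morulae only and 1856 in FGO only.

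A fully grown oocyte is largely silent in transcription and carries a store of messages for its own maturation, for fertilization and for the first cleavages. After fertilization this store is degraded in steps while the embryonic genome is switched on, in the mouse mainly at the 2-cell stage. The morula is the compacting embryo that follows, in which cells polarize, outer cells start on the path to trophectoderm and inner cells on the path to the inner cell mass. An oocyte message found in a morula may be left from the store or made anew by the embryo, and reads that carry a paternal variant come from the embryo's own genome.

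The measurement differed between the stages, which touches every value below. For FGO the table gives whole-gene counts, 26364085 and 25716758 in total. For morulae it gives allele-assigned reads only, a maternal and a paternal count for each gene, whose sums were 1685510 and 1587445. A gene with no strain variant in its message therefore has no count in morulae, whatever its level. Pou5f1, which encodes the pluripotency factor OCT4, had 0 reads in all 10 allele-split libraries of the series, against 374 and 498 counts in CTR FGO. Stage, strain and the kind of count cannot be told apart in this design. What share of a gene's reads could be assigned is not known, so sizes of change and list medians are not those of RNA alone. For many genes that are low in morulae, reads in the other 8 allele-split libraries (matKO morulae and extraembryonic ectoderm, ExE) are given. They are a measure of whether a gene could be assigned at all. In bulk RNA, fewer cells of a type and less RNA per cell also cannot be told apart. Counts were also spread over the genes differently: the 100 highest genes held 7.84% and 8.31% of the counts in CTR morulae and 25.6% in each CTR FGO library, and the highest gene had 2898 and 3019 counts in morulae (Timd2), against 248010 and 238192 in FGO (Fbxw24). In CTR ExE, also allele-assigned, the 100 highest genes held 21.9% and 22.9%. Levels are given as CPM, counts divided by a library size that edgeR's TMM factors adjust, which are not corrected for gene length and so are compared between stages and not between genes.

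Of 13845 genes tested with edgeR's quasi-likelihood test, 4742 (34.3%) were higher and 6981 (50.4%) lower in morulae at an adjusted p under 0.05. Together that is 84.7% of the genes tested, so a call by itself says little about a gene, and sizes are given throughout. The split depended on the scaling: with plain library totals 6897 genes were higher and 4768 lower, and with quantile-normalized voom 5907 were higher and 5405 lower. The median log2 fold change of all tested genes was -0.74 with TMM and 0.66 with library totals, a shift of 1.41. Among the 8049 tested members with at least 20 counts in each stage, 3324 (41.3%) were higher, 3257 (40.5%) lower and 1468 (18.2%) had no call, and their median log2 fold change was 0.03. A change of at least 4-fold was called upwards in 1818 of them (22.6%) and downwards in 1516 (18.8%). Under all 4 scalings tried (TMM, DESeq2 size factors, library totals and quantile), 1549 of the falls (19.2% of the members tested) were called in the same direction. The other scalings moved the median of all tested genes up by 0.08, 1.41 and 0.85, in this order, so they test falls and could hardly remove a rise. Where falls called in all 4 scalings are counted below, no such count is given for rises. The quartiles of the log2 fold change were -1.50 and 1.79, so the spread of stage changes was wide on both sides. Of 26 gene lists with a median over such members, 15 had one below 0 with TMM; 8 of these lay above 0 with library totals and 2 with quantile voom, while the median of all these members was 1.44 and 0.80 there. A list's median is best read against that of all members. At the edge of the rule, 64 genes with a morula sum of 20 counts had a median log2 fold change of -1.39, and 56 genes with a sum of 19 had -1.62.

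**Figure D1:**
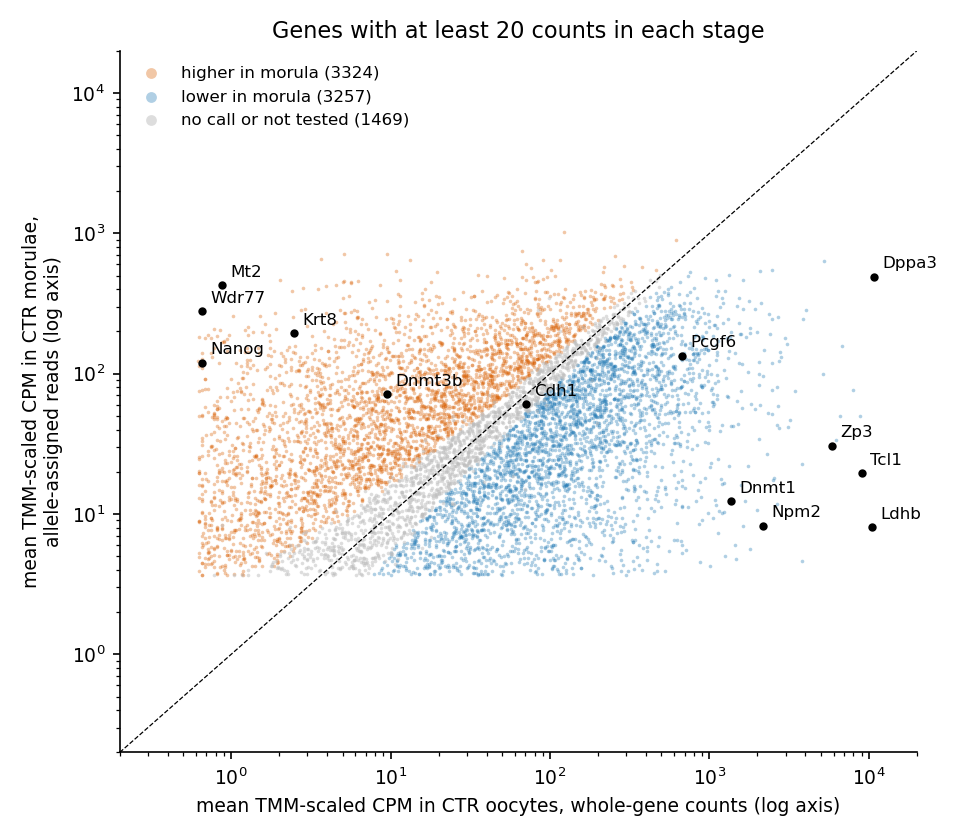
Mean TMM-scaled CPM of each gene with at least 20 counts in each stage, CTR morulae on the vertical and CTR FGO on the horizontal log axis, coloured by edgeR call; the dashed line marks equal values. The 3324 higher and 3257 lower genes lie on either side of the line, and FGO levels reach 10758 CPM (Dppa3) where the highest morula level in the plot is 1015 CPM (Dab2).

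Among members with few counts in FGO, the largest folds belonged to Timd2, Pramel6, Crxos, Pramel7, Krt18, Gcnt1, Mgarp and Frrs1. Timd2, an immunoglobulin-domain membrane protein that binds ferritin, had 2898 and 3019 counts in morulae, against 2 and 0 in FGO, a ratio of 17728 with a 95% counting interval of 4905 to 146421. The PRAME-like genes Pramel6 and Pramel7 had 1805 and 1781, and 1165 and 1191 counts in morulae, with 0 in every FGO library, which is at least 7163-fold and 4706-fold higher against the floor of 3 counts. Crxos, a homeobox gene of the early embryo, had 1471 and 1661 counts in morulae and none in FGO, at least 6256-fold higher. Gcnt1, a glycosyltransferase, had 1105 and 956 counts in morulae and 0 and 2 in FGO. These counts were near equal in both morula libraries and close to the counting floor in both FGO libraries, so the stages did not overlap. Over all 1118 members of this class, 284 had no count in FGO at all. All were chosen for this difference, so no test is given for them. The interval of Timd2 pools the libraries of a stage. It covers counting error only, not this choice or the spread between libraries.

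In the other direction the largest folds belonged to the oocyte F-box genes Fbxw15, Fbxw18 and Fbxw24, the homeobox genes Obox2 and Obox5, Btg4, Bpgm and Ooep. Fbxw24 had 4 and 4 counts in morulae, against 248010 and 238192 in FGO. Obox2 had no count in either morula library, against 188672 and 180542 in FGO, at least 20538-fold lower. Btg4, an adaptor that brings the CCR4-NOT deadenylase to maternal messages, had 0 counts in morulae, against 106123 and 94204 in FGO. Btg4, Bpgm, Ooep and Obox5 had no assigned read in any of the 10 allele-split libraries, and Obox2, Fbxw15, Fbxw18 and Fbxw24 had 2, 6, 1 and 7 in the other 8, so that for these genes a loss of RNA and a lack of assignable reads cannot be told apart. The same limit holds for much of this class: of its 1856 members, 1068 had no read in CTR morulae and 787 none in any allele-split library, while 338 had at least 20 reads in the other 8 libraries. The Fbxw and Obox genes are also families of near-identical copies, and how reads with several matches were counted is not given in the sources used here.

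Among members measured at 20 counts or more in each stage, the 10 largest rises were Mt2, Wdr77, Sgk3, Gm2a, Uap1l1, Ccdc43, Pros1, Rab17, Pmaip1 and Echdc2. Mt2, a metallothionein that binds zinc, had 1164 and 1117 counts in morulae and 12 and 16 in FGO, a log2 fold change of 8.91 ± 0.18 (SE; edgeR adjusted p 1.02e-08). Wdr77, a partner of the arginine methyltransferase PRMT5, had 748 and 742 counts in morulae and 13 and 8 in FGO (8.71 ± 0.21). Echdc2 had 1286 and 1185 counts in morulae and 34 and 31 in FGO (7.82 ± 0.15). Only called genes whose morula and FGO libraries did not overlap could enter these 10, so their separation was set by the choice. Rab17, a small GTPase of polarized epithelia, had 632 and 469 counts in morulae but 0 and 27 in FGO, so its fold change of 7.90 ± 0.77 is the least certain of the 10. Pmaip1, the p53 target NOXA, had 608 and 358 counts in morulae and 14 and 10 in FGO.

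The 10 largest falls in this class were Ldhb, Rbbp7, Tcl1, Plac8, Oas1c, Npm2, Ncl, Tle6, Med7 and H3f3b. Ldhb, the lactate dehydrogenase subunit of the oocyte, had 25 and 18 counts in morulae, against 159666 and 174577 in FGO, a log2 fold change of -10.34 ± 0.16 (edgeR adjusted p 5.88e-09). It had 3004 reads in the other 8 allele-split libraries. Tcl1, an AKT co-activator needed by cleaving embryos, had 31 and 72 counts in morulae and 151905 and 136766 in FGO. The other 8 allele-split libraries held 75 reads of it. Tle6, of the subcortical maternal complex, had 16 in each morula library and 22456 and 23397 in FGO (-7.90 ± 0.14). Npm2, the histone chaperone nucleoplasmin of the egg, had 24 and 20 counts in morulae and 37387 and 32184 in FGO (-8.04 ± 0.15). The other 8 allele-split libraries held 69 reads of Npm2. Ncl, nucleolin, had 15 and 12 counts in morulae and 19004 and 20845 in FGO, with only 62 reads in the other 8 allele-split libraries, and Med7 had 38 there. Oas1c had 22 and 4 counts in morulae and 22700 and 24394 in FGO, and Rbbp7 17 and 8 in morulae, so the morula libraries lay far apart for these genes as for Tcl1. As for the rises, only called genes whose libraries did not overlap between stages could enter, so that separation was set by the choice.

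Most listed genes of the egg coat and of sperm-egg contact had few or no counts in morulae. Of 11 listed genes, 3 reached 20 counts in each stage and all 3 fell, 2 of them in all 4 scalings, 7 were members through FGO only and 1, Tex101, through morulae only. Cd9 fell least of the 3 (log2 fold change -2.01), and its fall was not called in all 4 scalings. ZP1, ZP2 and ZP3 are the glycoproteins of the zona pellucida. Zp1, at chromosome 19, 10914296 to 10920601 (GRCm38.p6), had 1 and 1 counts in morulae, against 20399 and 18953 in FGO. Zp2 (chromosome 7, 120126762 to 120145291) had 7 and 10, against 105745 and 96699 in FGO. Zp3 (chromosome 5, 135980105 to 135988624) had 78 and 85, against 94786 and 93319, or 30.7 ± 3.45 CPM in morulae and 5895 ± 39.3 CPM in FGO (SD, n = 2 each), a log2 fold change of -7.59 ± 0.12 (edgeR adjusted p 6.34e-09). All 4 libraries were in this order for each zona gene. In the other 8 allele-split libraries Zp1 and Zp2 had 17 and 12 reads and Zp3 198. Oosp1, an oocyte-secreted protein, had 1 and 2 counts in morulae, against 50677 and 46758 in FGO. It had 9 reads in the other 8 allele-split libraries. Tex101, a surface protein known from testis, had 21 and 31 counts in morulae and none in FGO.

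GDF9 and BMP15 are TGF-beta family ligands by which the oocyte acts on granulosa cells, and KIT is its receptor for KIT ligand. Gdf9 (chromosome 11, 53430774 to 53437904) had 2 and 1 counts in morulae, against 88643 and 84717 in FGO, a ratio of 0.000104 with a 95% counting interval of 2.14e-05 to 0.000303. That interval pools the libraries of a stage and leaves out the spread between them. Bmp15 (chromosome X, 6314054 to 6320724) had no count in morulae, against 59471 and 56162 in FGO, at least 6432-fold lower. Kit had 1 and 4 counts in morulae, against 3032 and 2782 in FGO. Gja4, the gap junction protein that joins oocyte and granulosa cells, had 2 and 0, against 11233 and 9637, with 261 reads in the other 8 allele-split libraries. Of the 9 listed growth factors and receptors, 5 were members through FGO only and Igf2r was measured in both stages without a call. Assigned reads in the other 8 libraries were few for Gdf9 (20), Bmp15 (2) and Kit (6).

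**Figure D2:**
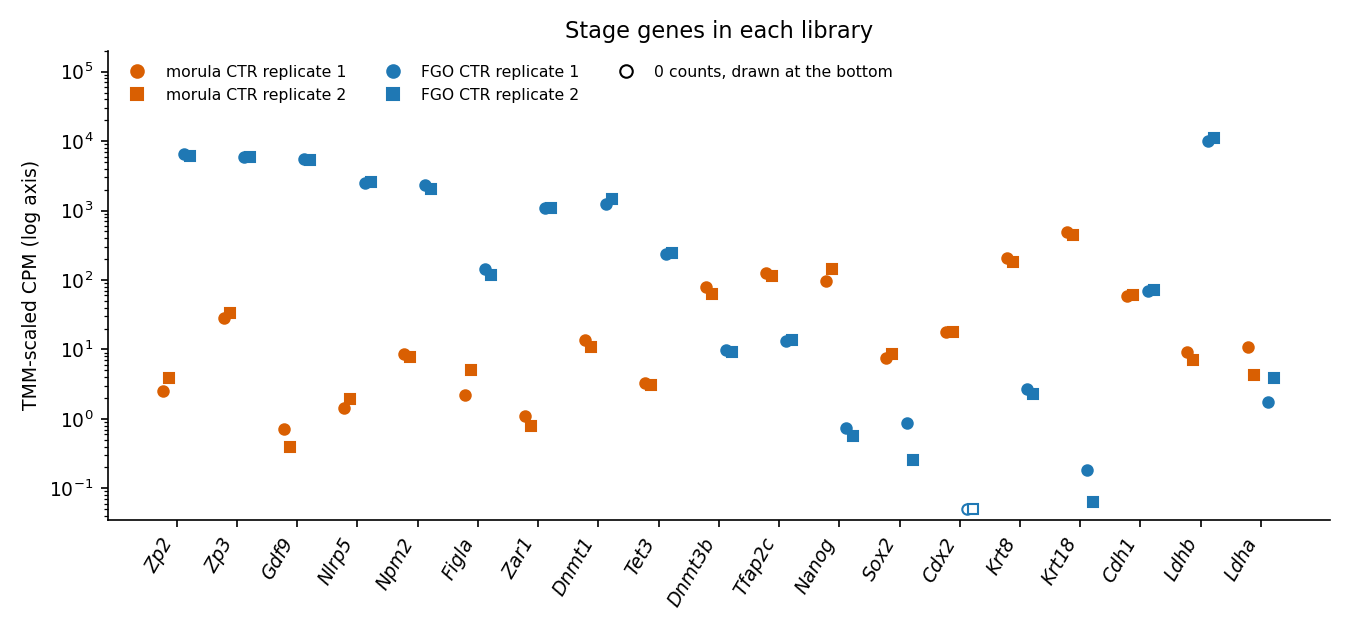
TMM-scaled CPM of stage genes in each CTR morula library (orange, left) and each CTR FGO library (blue, right) on a log axis; open symbols are 0 counts. Oocyte genes from Zp2 to Tet3 lie higher in FGO, Dnmt3b to Krt18 lie higher in morulae, Cdh1 is close in both, and replicate libraries lie near each other except at low counts.

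The start regions of 4 stage genes are shown as examples: Zp3 and Bmp15 among the oocyte genes, Krt18 and Nanog among the morula genes. FIGLA, a basic helix-loop-helix factor, drives zona genes in mouse oocytes through an E-box, whose letters are CANNTG. Each line is the 250 bases before the RefSeq start (GRCm38.p6), 5′ to 3′ on the gene's strand, with every CANNTG in capitals.
Zp3, chr5:135979855-135980104, plus strand: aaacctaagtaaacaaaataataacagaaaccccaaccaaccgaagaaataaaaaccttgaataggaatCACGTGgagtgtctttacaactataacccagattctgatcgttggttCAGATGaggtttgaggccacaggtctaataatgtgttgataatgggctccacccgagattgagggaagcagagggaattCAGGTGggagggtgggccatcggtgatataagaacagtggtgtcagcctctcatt
Bmp15, chrX:6320725-6320974, minus strand: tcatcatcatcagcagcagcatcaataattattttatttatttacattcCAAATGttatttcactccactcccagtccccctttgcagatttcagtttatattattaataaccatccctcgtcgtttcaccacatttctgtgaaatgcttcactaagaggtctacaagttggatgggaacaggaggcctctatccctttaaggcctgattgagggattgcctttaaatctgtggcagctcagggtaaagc
Krt18, chr15:102027966-102028215, plus strand: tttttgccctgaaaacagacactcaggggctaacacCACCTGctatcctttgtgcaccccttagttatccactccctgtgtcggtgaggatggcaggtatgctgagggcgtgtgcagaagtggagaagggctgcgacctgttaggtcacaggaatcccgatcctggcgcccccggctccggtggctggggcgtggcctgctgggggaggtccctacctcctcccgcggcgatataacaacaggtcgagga
Nanog, chr6:122707239-122707488, plus strand: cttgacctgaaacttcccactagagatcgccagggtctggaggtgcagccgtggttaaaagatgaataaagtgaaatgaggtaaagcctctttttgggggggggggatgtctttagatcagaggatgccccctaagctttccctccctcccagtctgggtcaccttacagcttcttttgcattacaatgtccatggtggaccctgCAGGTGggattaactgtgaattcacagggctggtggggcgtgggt
The Zp3 stretch held 3 copies of CANNTG, and the others 1 each. CANNTG, which reads the same on both strands, was found in 66.0% of the 27025 promoters of the same length in the RefSeq table, so its presence in 16 of the 22 stage genes with a promoter there sets them little apart. CACGTG, a form of the E-box contained in CANNTG, was found in 6.05% of promoters and in 2 of the 22, Zp3 and Ldha. The homeobox letters TAATTG or TAATTA, searched on both strands, were found in 11.5% of promoters and only in Bmp15 among the 22. These are matches of letters, not sites.

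Few transcription factors of the oocyte could be compared. Of 13 listed, 7 were members through FGO only and 3 were measured in both stages, of which Taf4b rose and the other two fell, though neither fall was called in all 4 scalings. The other 3 were not members. Figla had 6 and 13 counts in morulae, against 2334 and 1871 in FGO, with 21 reads in the other 8 allele-split libraries. Nobox, a homeobox activator of oocyte genes, had none, against 12987 and 10976 in FGO, and had no read in any allele-split library. Lhx8 had 0 and 1, against 3772 and 3375, with 4 reads in the other 8. Taf4b, a TFIID subunit of gonads, had 122 and 125 counts in morulae and 518 and 463 in FGO, which is 46.5 ± 3.20 CPM and 30.7 ± 1.89 CPM once scaled (log2 fold change 0.60 ± 0.20, edgeR adjusted p 0.0203).

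The subcortical maternal complex is a protein assembly under the egg membrane that early cleavage needs. Of 16 listed genes of the complex and of the maternal NLRP family, 3 were measured in both stages, of which 2 fell (in all 4 scalings) and Nlrp4c rose. The other 13 were members through FGO only, 3 of them with no assigned read in any allele-split library, so that their level in morulae is uncertain. Nlrp5, also called Mater, had 4 and 5 counts in morulae, against 40241 and 40173 in FGO, with 11 reads in the other 8 allele-split libraries. Nlrp14 had 8 and 10, against 140259 and 147755, with 8 reads in the other 8 libraries. The morula levels of Nlrp5 and Nlrp14 are therefore uncertain too. Zbed3 had 3 and 4, against 62050 and 68287, and it had 148 reads in the other 8 allele-split libraries. In contrast, Nlrp4c had 405 and 371 counts in morulae and 663 and 564 in FGO, which is 145.7 ± 1.50 CPM in morulae and 38.4 ± 3.71 CPM in FGO (log2 fold change 1.92 ± 0.14, edgeR adjusted p 4.18e-06). NLRP genes are close paralogs, so their split of reads is uncertain. Among the 35 genes of oocyte multigene families, 24 were members through FGO only, 4 of 7 measured in both stages fell and Obox6 rose, with 209 and 284 counts in morulae and 12 and 25 in FGO (6.31 ± 0.37). Obox1, Obox2 and Obox5 had 2 morula counts among them, all in Obox1.

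Genes that store or degrade maternal messages were lower in morulae. Of 25 listed genes found in the table, 8 of the 11 measured in both stages fell, 6 of them in all 4 scalings, Ddx6 rose, and 12 were members through FGO only. The median log2 fold change of the 11 was -2.40, against 0.03 for all members measured in both stages. Of all those members 40.5% fell, 19.2% in all 4 scalings, and 41.3% rose. ZAR1 and CPEB1 bind maternal messages in the oocyte. Zar1 had 3 and 2 counts in morulae, against 17473 and 17102 in FGO, and Cpeb1 had 3 and 6, against 10470 and 9725, but the other 8 allele-split libraries held only 1 and 4 reads of them. Cnot7, a CCR4-NOT deadenylase, and Pabpn1l had 2 and 1 morula counts in total and none in the other 8. Ddx6, an RNA helicase of P-bodies, had 170 and 152 counts in morulae and 511 and 341 in FGO (log2 fold change 1.18 ± 0.23).

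Small RNA genes were mixed. Of 13 measured in both stages 7 fell, 5 of them in all 4 scalings, and 4 rose, with a median of -0.73 that was 0.68 with library totals. Over all such members 40.5% fell and 41.3% rose. Dicer1, which cuts small RNA precursors, had 134 and 105 counts in morulae, against 8106 and 9402 in FGO (-3.62 ± 0.15, edgeR adjusted p 1.51e-07). Mael, a piRNA pathway gene, had 52 and 46, against 3848 and 4352 (-3.80 ± 0.16). Piwil2 rose, from low counts of 50 and 35 in morulae and 43 and 25 in FGO (2.90 ± 0.41), and so did Xpo5, the exporter of microRNA precursors (1.08 ± 0.19).

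Meiotic regulators were mostly lower with TMM, where their median was -1.30, against 0.11 with library totals. Of 34 found, 16 of 22 measured in both stages fell (9 in all 4 scalings), 5 rose and 10 were members through FGO only. Over all members measured in both stages 40.5% fell (19.2% in all 4 scalings) and 41.3% rose. The median of all these members was 0.03 with TMM and 1.44 with library totals. Ccnb1, cyclin B1, had 515 and 510 counts in morulae and 38747 and 38208 in FGO, a log2 fold change of -3.65 ± 0.10 (edgeR adjusted p 2.20e-08). Mos, the kinase that holds the egg in metaphase II, had no count in morulae, against 19147 and 17102 in FGO, at least 2016-fold lower, with 8 reads in the other 8 allele-split libraries. Wee2, the oocyte kinase that keeps CDK1 inactive, and Arpp19 had no read in any allele-split library. Cdc25c and Cdc25a, phosphatases that activate cyclin-dependent kinases, rose. Cdc25c had 498 and 423 counts in morulae and 574 and 537 in FGO (2.31 ± 0.13), and Cdc25a 225 and 213 in morulae and 683 and 668 in FGO (0.96 ± 0.15).

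Maternal chromatin factors and guardians of imprints fell more often than they rose: 13 of 17 measured in both stages fell, 7 of them in all 4 scalings, and Trim28 and Ehmt2 rose. The median of the 17 was below 0 with TMM and 0.41 with library totals. Over all members measured in both stages 40.5% fell (19.2% in all 4 scalings) and 41.3% rose, with a median of 1.44 with library totals. Dppa3, also called Stella, which protects the maternal genome from demethylation, had 1271 and 1337 counts in morulae, against 175184 and 168132 in FGO. That is 490.9 ± 42.9 CPM in morulae and 10758 ± 122 CPM in FGO (-4.45 ± 0.10, edgeR adjusted p 1.32e-08). Zfp57, which binds methylated imprinting control regions, had 142 and 173 counts in morulae and 31749 and 34357 in FGO (-5.13 ± 0.15). Its partner Trim28 had 408 and 501 in morulae and 1245 and 1109 in FGO, a rise of 1.22 ± 0.16. Both Dppa3 and Zfp57 were lower in every morula library than in every FGO library in TMM-scaled CPM.

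Of 13 genes of the DNA methylation machinery measured in both stages, 4 rose and 6 fell, 3 of these in all 4 scalings, shares near those of all members measured in both stages (41.3% and 40.5%). Among the falls, Dnmt1 (chromosome 9, 20907206 to 20959888), the maintenance methyltransferase, had 38 and 28 counts in morulae and 20128 and 23298 in FGO (-6.78 ± 0.17, edgeR adjusted p 1.75e-08), with 1388 reads in the other 8 allele-split libraries. Its recruiter Uhrf1 had 71 and 76 in morulae and 3679 and 3582 in FGO (-3.04 ± 0.14). Dnmt3a, the de novo enzyme of the oocyte, had 52 and 33 in morulae and 2074 and 1842 in FGO (-2.94 ± 0.20). The de novo enzyme of the embryo, Dnmt3b, rose: it had 220 and 161 counts in morulae and 159 and 144 in FGO, which is 71.2 ± 12.0 CPM in morulae and 9.49 ± 0.50 CPM in FGO (2.91 ± 0.22). Dnmt3l, their cofactor, was at 242.9 ± 3.79 CPM in morulae and 205.1 ± 25.9 CPM in FGO, with no call (0.24 ± 0.12, edgeR adjusted p 0.0946). Among the TET dioxygenases, Tet3 had 9 and 8 counts in morulae and 3855 and 3894 in FGO, while Tet2 had 508 and 422 in morulae and 92 and 72 in FGO (5.08 ± 0.18).

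Pcgf1 and Pcgf6, the genes targeted elsewhere in the series, each encode a subunit of a variant form of PRC1, the Polycomb complex that puts ubiquitin on histone H2A. Pcgf6 (chromosome 19, 47033617 to 47050939) had 334 and 379 counts in CTR morulae and 10434 and 11024 in CTR FGO, or 134.4 ± 18.9 CPM and 672.8 ± 38.0 CPM (-2.32 ± 0.13, edgeR adjusted p 6.74e-07). Pcgf1 (chromosome 6, 83077552 to 83080855) had 1 and 0 in CTR morulae and 37080 and 28293 in CTR FGO, but only 9 assigned reads in the other 8 allele-split libraries, so its level in morulae cannot be read. Of 23 listed PRC1 genes measured in both stages 17 fell, 10 of them in all 4 scalings, and 3 rose, with a median of -1.28 that was 0.13 with library totals. Skp1a, a PRC1.1 partner, had 86 and 94 counts in morulae and 100169 and 98357 in FGO (-7.52 ± 0.12), and Bmi1, the subunit also called PCGF4, 90 and 78 in morulae and 4778 and 5302 in FGO (-3.33 ± 0.14). Pcgf5 went the other way, with 419 and 355 counts in morulae and 403 and 397 in FGO (2.53 ± 0.14), as did Cbx8 at low counts. Among PRC2 genes, which methylate H3K27, 7 of 10 fell and 2 rose, with a median of -1.30 that was 0.11 with library totals. Eed had 370 and 379 counts in morulae and 10984 and 11012 in FGO (-2.29 ± 0.11) and the catalytic Ezh2 328 and 376 in morulae and 8855 and 9301 in FGO (-2.10 ± 0.13). The fall of Suz12 (-1.20 ± 0.12) became 0.21 with library totals, and of the 7 falls 3 were called in all 4 scalings. Mtf2 rose by 0.81 ± 0.10. Of 11 H2A deubiquitinase genes measured in both stages 6 fell (2 in all 4 scalings) and 3 rose, with a median of -0.78 that was 0.63 with library totals. For these 3 lists, the shares over all members measured in both stages were 40.5% lower and 41.3% higher. Usp22 was among the rises (3.37 ± 0.22).

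Pluripotency genes split. Of 15 measured in both stages, 7 rose and 6 fell (3 in all 4 scalings), with a median of 0.02, and 5 more were members through morulae only. Over all members measured in both stages 41.3% rose and 40.5% fell. Nanog (chromosome 6, 122707489 to 122714633), a homeobox factor of the inner cell mass, had 265 and 368 counts in morulae and 12 and 9 in FGO (7.48 ± 0.32, edgeR adjusted p 1.78e-07). Tfcp2l1 had 1911 and 1855 in morulae and 83 and 80 in FGO (7.11 ± 0.13), and Klf5 504 and 510 in morulae and 0 and 1 in FGO. Sox2, a member through morulae only, was low in both stages, with 21 and 22 counts in morulae and 14 and 4 in FGO. That is 8.09 ± 0.68 CPM and 0.56 ± 0.43 CPM. Tcl1, described above, was among those that fell, and Trim71, an RNA-binding ubiquitin ligase, had 79 and 53 counts in morulae and 6199 and 5577 in FGO (-3.90 ± 0.17). Dppa5a and Pou5f1 had no assigned read in any allele-split library, which leaves 2 of the 3 members found through FGO only unreadable in morulae.

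Trophectoderm genes measured in both stages were mostly higher. Of 36 listed, 14 were measured in both stages, of which 11 rose and 2 fell, neither fall in all 4 scalings, with a median of 2.96. Over all members measured in both stages 41.3% rose and 40.5% fell, with a median of 0.03. A further 7 were members through morulae only, 3 through FGO only and 12 were not members. CDX2 and TEAD4 are transcription factors of the outer lineage, and KRT8 and KRT18 pair as its keratin filaments. Cdx2 (chromosome 5, 147300900 to 147307249) had 49 and 45 counts in morulae and none in FGO, at least 188-fold higher. Tead4 had 406 and 362 in morulae and 16 and 14 in FGO (7.24 ± 0.20, edgeR adjusted p 2.85e-08). Krt8 had 567 and 472 in morulae and 43 and 36 in FGO (6.29 ± 0.18), and Krt18 1344 and 1137 in morulae and 3 and 1 in FGO. Tfap2c had 352 and 297 in morulae and 216 and 212 in FGO, which is 121.7 ± 8.32 CPM and 13.4 ± 0.060 CPM (3.18 ± 0.16). Gata3 had 122.5 ± 2.96 CPM in morulae and 66.6 ± 17.3 CPM in FGO, a small rise (0.88 ± 0.19). The 3 found through FGO only were Grhl1, Aqp9 and Elf3. Grhl1, a grainyhead factor, had 3 and 6 counts in morulae and 1281 and 1379 in FGO, while its paralog Grhl2 rose (3.82 ± 0.18). Aqp9, an aquaporin, had 0 and 0 in morulae and 752 and 781 in FGO, with no read in any allele-split library. Elf3, an ETS factor of epithelia, had 1 and 4 in morulae and 442 and 369 in FGO, with 2 reads in the other 8 allele-split libraries.

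Primitive endoderm genes measured in both stages were also mostly higher. Of 23 listed, 11 were measured in both stages, of which 10 rose and Lamb1 fell, with a median of 3.32. The shares over all members measured in both stages were 41.3% higher and 40.5% lower, with a median of 0.03. A further 3 were members through morulae only and 9 were not members. GATA6 is the factor that opposes NANOG in the inner cell mass. Gata6 had 302 and 305 counts in morulae and 23 and 14 in FGO (6.61 ± 0.26, edgeR adjusted p 1.12e-07). The endocytic receptor Lrp2 had 1552 and 914 in morulae and 65 and 97 in FGO (6.49 ± 0.30), and its adaptor Dab2 2793 and 2611 in morulae and 1966 and 1916 in FGO (3.06 ± 0.10). Lamb1, a laminin chain, had 120 and 166 in morulae and 9021 and 9062 in FGO (-3.39 ± 0.18). Gata4, Lama1 and Sox7 were not members. Gata4 and Lama1 were called lower in morulae, and Lama1, another laminin chain, had 5 and 5 counts in morulae and 200 and 212 in FGO (-2.77 ± 0.40).

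Compaction and blastocyst formation rest on adhesion and tight junctions, and this list rose more than it fell: 21 of 37 measured in both stages were higher and 9 lower, 3 of them in all 4, with a median of 0.99. F11r, the junctional adhesion molecule JAM-A, had 707 and 725 counts in morulae and 34 and 26 in FGO (7.15 ± 0.19, edgeR adjusted p 2.10e-08). Perp, a desmosome protein, had 1151 and 973 in morulae and 53 and 58 in FGO (6.83 ± 0.16). Cldn4, a claudin, had 583 and 615 in morulae and 221 and 201 in FGO (4.09 ± 0.15). Cdh1 (chromosome 8, 106603350 to 106670247), E-cadherin, the adhesion molecule of compaction, had 60.3 ± 1.26 CPM in morulae and 70.4 ± 0.45 CPM in FGO and no call (-0.22 ± 0.15, edgeR adjusted p 0.182); its direction turned with library totals, where it was 1.19. Its partner Ctnnb1 fell (-1.77 ± 0.13). In the Hippo pathway, which reads cell position, 6 of 14 rose and 4 fell, 1 of the falls in all 4 scalings. Of all members measured in both stages 41.3% rose and 40.5% fell, so these few rises set the list little apart. Tead1 had 179 and 152 counts in morulae and 68 and 45 in FGO (4.13 ± 0.28) and the co-activator Wwtr1 500 and 522 in morulae and 1336 and 1231 in FGO (1.26 ± 0.13), while Yap1, with -1.38 ± 0.16, came to 0.03 with library totals.

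**Figure D3:**
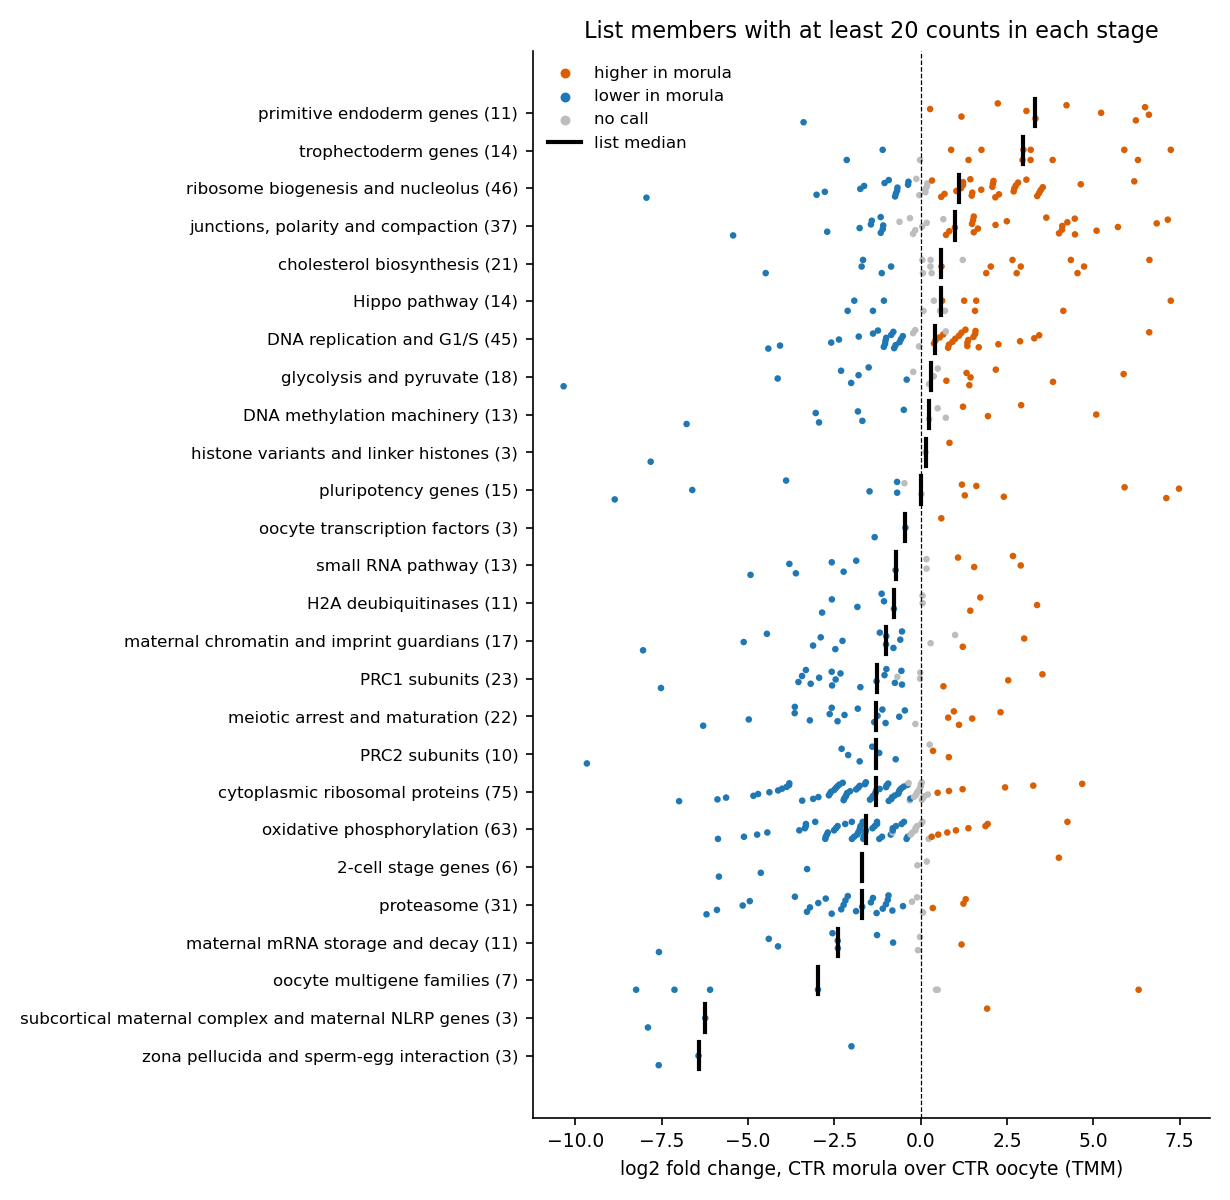
Log2 fold change (CTR morula over CTR FGO, TMM) of each list member with at least 20 counts in each stage, 1 point per gene coloured by edgeR call, with the list median as a bar and the number of genes in brackets. Medians run from -6.43 for zona genes to 3.32 for primitive endoderm genes, and most lists hold genes of both directions; with library totals 8 of the 15 negative medians lie above 0.

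Of the listed 2-cell stage genes, 13 of 25 were not members, among them most Zscan4 and Usp17l copies. Pramel6 and Pramel7, given above, were among those that were. Arg2, an arginase, had 46 and 33 counts in morulae and 13474 and 13706 in FGO (-5.84 ± 0.15, edgeR adjusted p 1.84e-08), and Sp110 32 and 27 in morulae and 4642 and 4128 in FGO (-4.63 ± 0.16). Zscan4, Usp17l and Pramel genes are families of near copies that share reads, so their counts are uncertain.

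Genes of protein and energy supply moved in different directions. Over all members measured in both stages 41.3% rose and 40.5% fell, and 19.2% fell in all 4 scalings. The median of all these members was 0.03 with TMM and 1.44 with library totals. Ribosome biogenesis genes rose in 27 of 46 measured in both stages and fell in 13, with a median of 1.10. Nop16 had 592 and 563 counts in morulae and 58 and 37 in FGO (6.18 ± 0.21, edgeR adjusted p 6.06e-08), and Rrp1 950 and 947 in morulae and 560 and 499 in FGO (3.43 ± 0.12). Npm1, the abundant nucleolar chaperone, fell (-2.78 ± 0.11). The messages of the ribosome itself were lower: 54 of 75 cytoplasmic ribosomal protein genes fell, 30 of them in all 4 scalings, and 6 rose, with a median of -1.31 that was 0.10 with library totals. Rps29 had 90 and 79 counts in morulae and 8486 and 7890 in FGO (-4.01 ± 0.12), with 18206 reads in the other 8 allele-split libraries. Rpl4 had none in any allele-split library, and ribosomal protein genes have many processed copies. Rps3 went against the rest, with 1459 and 1465 counts in morulae and 1677 and 1551 in FGO (2.44 ± 0.11), as did Rpl10l, a retrogene known from testis, with 424 and 449 in morulae and 115 and 90 in FGO (4.68 ± 0.18).

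Oxidative phosphorylation genes encoded in the nucleus fell in 46 of 63, 24 of them in all 4 scalings, with a median of -1.59, or -0.18 with library totals, and rose in 8. Here and for the proteasome, the shares over all members measured in both stages were 40.5% lower and 41.3% higher. In all 4 scalings 19.2% of those members fell. Ndufb5, a complex I subunit, had 33 and 28 counts in morulae and 11139 and 10278 in FGO (-5.87 ± 0.14, edgeR adjusted p 1.50e-08), while Uqcrc1, a core subunit of complex III, had 849 and 784 in morulae and 270 and 245 in FGO (4.25 ± 0.13). Proteasome genes fell in 25 of 31, 15 in all 4 scalings, with a median of -1.69, or -0.28 with library totals. Psma7 had 773 and 758 counts in morulae and 31861 and 29988 in FGO (-2.75 ± 0.09), and Psmc5 273 and 280 in morulae and 15568 and 15091 in FGO (-3.21 ± 0.11). Psmd7 was among the 3 that rose, with 530.2 ± 48.9 CPM in morulae and 215.0 ± 17.2 CPM in FGO.

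Glycolytic genes were even in number, 7 of 18 higher and 7 lower, with a median of 0.31. The shares over all members measured in both stages were 41.3% higher and 40.5% lower. They apply as well to the cholesterol and DNA replication lists below. The switch from the oocyte's pyruvate use to glucose use is known to fall near the morula stage. Hk2, a hexokinase, had 342 and 338 counts in morulae and 26 and 43 in FGO (5.88 ± 0.25, edgeR adjusted p 1.99e-07), and Hk1 93 and 88 in morulae and 2 and 1 in FGO. Ldha (chromosome 7, 46842274 to 46855627) had 30 and 11 counts in morulae and 28 and 61 in FGO, so that raw counts overlap; scaled it was 7.58 ± 4.65 CPM and 2.80 ± 1.51 CPM, a rise at the edge of the threshold (1.44 ± 0.59, edgeR adjusted p 0.0486) that was -0.18 with maternal counts alone. Pkm and Aldoa had no assigned read in any allele-split library, so their morula level cannot be read. Cholesterol synthesis genes rose in 10 of 21 and fell in 5, 1 of these in all 4 scalings. Pmvk had 890 and 650 counts in morulae and 54 and 39 in FGO (6.62 ± 0.22), while Fdft1, squalene synthase, had 147 and 78 in morulae and 15390 and 14756 in FGO (-4.49 ± 0.22). DNA replication and G1/S genes were 23 higher and 18 lower of 45, with 5 of the falls in all 4 scalings. Cdkn1a, the p21 inhibitor, had 392 and 273 counts in morulae and 16 and 24 in FGO (6.62 ± 0.28), and Cdk4 327 and 319 in morulae and 177 and 182 in FGO (3.43 ± 0.16), while Orc6 had 395 and 400 in morulae and 12748 and 11881 in FGO (-2.37 ± 0.10).

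CTR ExE, the trophoblast tissue beside the later epiblast, offers a second set of allele-assigned counts to set against the same FGO libraries. Because both comparisons use the same FGO libraries, their medians are given side by side and no overlap is computed. Over 74 ribosomal protein genes the median log2 fold change over FGO was -1.32 in morulae and 0.21 in ExE. Over 63 oxidative phosphorylation genes it was -1.59 in morulae and 0.30 in ExE, and over 31 proteasome genes -1.69 and 0.32. For genes of mRNA storage and decay it was -2.40 in morulae and -2.64 in ExE, and for ribosome biogenesis 1.10 and 1.60. The median of all 7945 genes measured was -0.01 in morulae and -0.35 in ExE. On this scale the 3 lists of housekeeping genes lay below all genes in morulae and above them in ExE. Morulae and ExE differ in tissue, in depth and in the share of counts in the highest genes, given above. The part of each in these list medians was not tested.

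**Figure D4:**
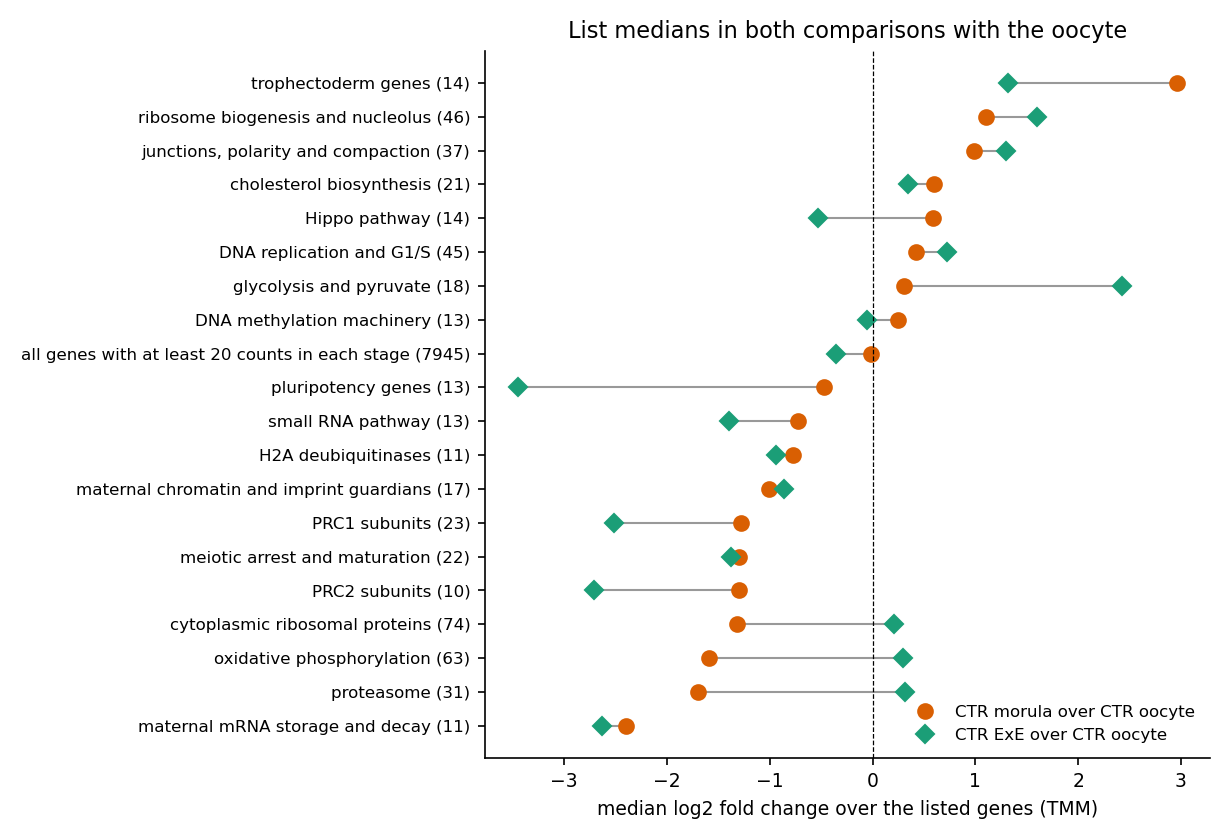
Median log2 fold change over CTR FGO of each list with at least 10 genes measured, for CTR morulae (circles) and CTR ExE (diamonds), which share the FGO libraries; the number of genes is in brackets. Ribosomal protein, oxidative phosphorylation and proteasome genes lie between -1.69 and -1.32 in morulae and between 0.21 and 0.32 in ExE (TMM in both).

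Markers of other cells bear on purity. Of 18 granulosa and cumulus cell markers 14 were not members, and their summed level was 76.8 to 114.5 CPM in morulae and 117.0 to 128.3 CPM in FGO. Most of the FGO sum was Cyp19a1, aromatase, with 1229 and 1435 counts in FGO and none in morulae, and most of the morula sum was Amhr2 (157 and 135 counts in morulae, 9 and 0 in FGO) and Hsd17b1 (131 and 51 in morulae, 27 and 39 in FGO). Of 8 blood cell markers none was a member and 4 had no count in any of the 4 libraries, with sums of 1.45 to 1.95 CPM in morulae and 0.19 to 0.51 CPM in FGO. Of 9 sperm markers 6 were not members; their sum of 86.2 to 133.0 CPM in morulae and 192.5 to 230.7 CPM in FGO was mainly Odf2, a centrosome gene of many cells. The part of such cells in the results was not tested.

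Reads in morulae carry the parent's strain, which the choice of members did not use. Over 6814 members with at least 20 assigned reads in each morula library, the median maternal share was 51.7% in both libraries. Among 2642 of these that fell the median was 52.2% in both libraries, and among 3059 that rose 51.4% in both. Among 197 that fell at least 16-fold it was 52.9% and 52.7%, and among 565 that rose at least 16-fold 51.3% and 51.4%. These medians leave out genes with few morula reads, a filter that a fall itself affects. Sums over all genes of a class, X-linked ones included, do not use it. Summed over the 360 members measured in both stages that fell at least 16-fold, 54.4% and 54.3% of reads were maternal (95% exact intervals 53.8 to 55.1% and 53.6 to 55.0%), and over the 75 of them that fell at least 64-fold 56.6% and 56.2% (54.7 to 58.5% and 54.2 to 58.2%). Over the 567 that rose at least 16-fold the shares were 52.0% and 51.9%. Summed over all 1856 members found through FGO only, 1201 of 2105 assigned reads were maternal in library 1 (57.1%, 95% exact interval 54.9 to 59.2%) and 1173 of 1966 in library 2 (59.7%, 57.5 to 61.8%). For the 1118 found through morulae only the shares were 50.9% and 50.7%. Intervals cover counting error only.

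Behind these medians, single genes of the oocyte differed widely in the parent their reads came from. Some were wholly or mainly maternal: Arg2 had 46 and 33 reads, all maternal, Npm2 was 87.5% and 85.0% maternal, Tcl1 80.6% and 86.1%, Skp1a 80.2% and 78.7%, and the few reads of Zp2 and Nlrp5 were all maternal. Ccnb1 (68.2% and 69.6%) and Dppa3 (66.4% and 65.4%) lay between. Others that fell were mainly paternal: Zp3 was 5.13% and 15.3% maternal, Mael 7.69% and 8.70%, Plac8 28.6% and 18.8% (of 14 and 16 reads), and Dnmt1 36.8% and 17.9%. Among genes that rose most, Mt2 was at 51.0% and 49.3% maternal, Gm2a at 41.2% and 42.5%, Pmaip1 at 61.8% and 53.9% and Uap1l1 at 65.5% and 54.2%. Of those with few counts in FGO, Timd2 was at 50.2% and 50.9% and Krt18 at 48.2% and 46.3%. At least 90% of reads were maternal in both libraries for 105 of the 6814 genes, of which 24 are X-linked, 37 rose and 50 fell. At most 10% were maternal for 45 genes, of which 1 is X-linked, 26 rose and 13 fell. Known paternally expressed imprinted genes were among these 26, named here after their values were seen: Zrsr1 had 103 and 113 counts in morulae and 19 and 8 in FGO (5.57), with 0% and 0.88% maternal reads, and Zdbf2 131 and 81 in morulae and 20 and 26 in FGO (4.77), with 1.53% and 2.47%. How the variants of a gene affect its assignment to each parent was not tested.

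**Figure D5:**
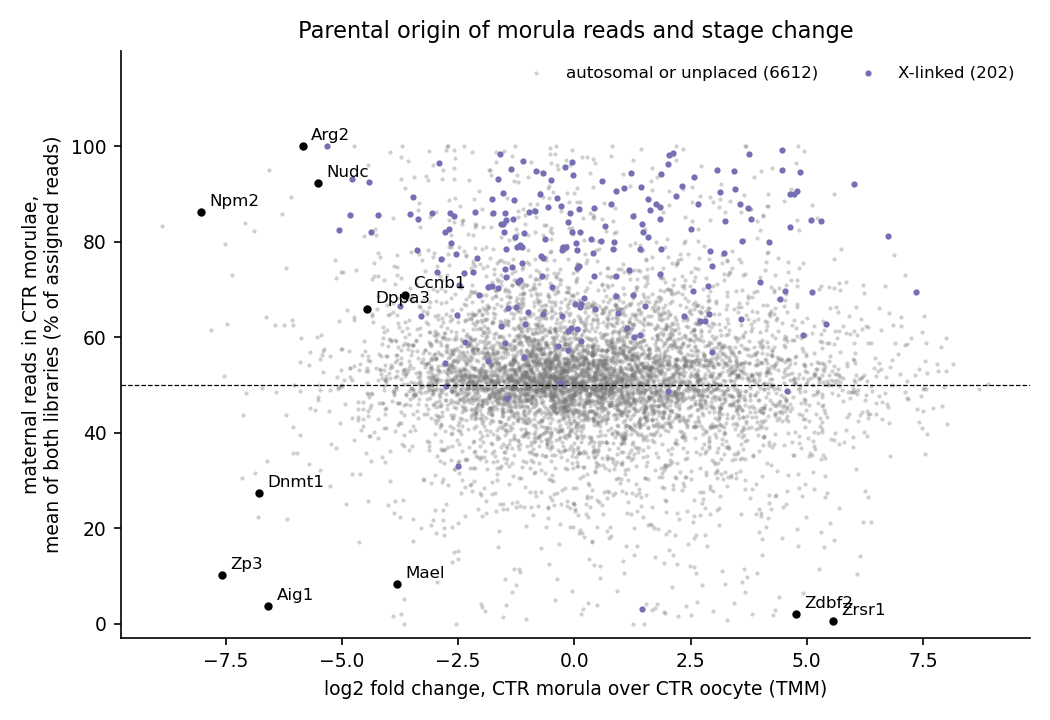
Maternal share of assigned reads (mean of the 2 CTR morula libraries, %) against the log2 fold change over CTR FGO for 6814 members with at least 20 reads in each morula library; X-linked genes are purple and the dashed line marks 50%. The median is 51.5% and 51.4% over autosomal genes and 79.9% and 79.1% over X-linked genes in the 2 libraries, and Arg2, Npm2, Zp3 and Dnmt1 show the range among genes that fell.

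X-linked genes differed from autosomal ones in parental share. The median maternal share was 79.9% and 79.1% over 202 X-linked genes, against 51.5% and 51.4% over 6611 autosomal genes. As background, the X of a male embryo is maternal; the sex of the embryos is not given in the sources used here. Of 254 X-linked members measured in both stages 36.6% rose and 43.7% fell, with a median log2 fold change of -0.25, against 41.4% and 40.4% of 7793 autosomal members with a median of 0.04. Rbbp7, an X-linked histone-binding gene, had 17 and 8 counts in morulae and 61189 and 60806 in FGO (-9.67 ± 0.19, edgeR adjusted p 9.46e-09).

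The same stage comparison was made in the knockouts, with matKO morulae, whose mothers lacked both genes, over KO FGO. Pcgf1 had 767 and 452 counts in KO FGO, against 37080 and 28293 in CTR FGO, and Pcgf6 3893 and 4352, against 10434 and 11024. Of 13735 genes tested 4256 (31.0%) were higher and 6834 (49.8%) lower, 80.7% in all. Of 6577 members with a CTR call that could be tested, 5617 were called in the same direction and 31 in the opposite one. The knockouts too set allele-assigned morula reads against whole-gene FGO counts. Agreement in direction therefore cannot tell stage from the kind of count. The difference of the stage change, knockout minus CTR, was called higher for 56 (0.380%) and lower for 330 (2.24%) of 14719 genes by edgeR, 2.62% in all, among them 43 and 245 members measured in both stages. These counts ran from 12 higher and 112 lower without FGO CTR replicate 1 to 227 higher and 331 lower without FGO KO replicate 2, and DESeq2's Wald test gave 250 and 425, so the number of such genes is uncertain. Sgk3, a kinase, was among the 10 largest CTR rises and rose less in the knockouts, by a log2 difference of -4.87 ± 0.35 (edgeR adjusted p 3.7e-05). It had 497 and 443 counts in matKO morulae and 319 and 307 in KO FGO, against 437 and 531 in CTR morulae and 9 and 11 in CTR FGO, so its counts were close in the morulae of both genotypes and higher in KO than in CTR oocytes.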

How the data were processed

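RNA-seq libraries of 2 CTR morulae and 2 CTR FGO samples were analysed, with 4 knockout libraries of the same stages and CTR ExE beside them; all were made with the SMART-Seq v4 kit and Nextera XT per the labels' protocols, a chemistry that does not mark the strand. The deposited table holds whole-number counts per gene: per the file headers, 1 column for an FGO library and a maternal and a paternal column for a morula or ExE library, which were summed here. The submitters' processing notes list STAR 2.7.3, RSEM 1.3.1, Bowtie2 2.3.5, Trim Galore 0.6.4, bcl2fastq 2.17, deepTools 3.3.1, MACS2 2.1.2 and bedtools 2.26.0 with builds mm10 and dm6 for the series; which made the counts, how reads were given to a parent and how duplicates or several matches were treated is not stated in these sources.

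Genes were tested with edgeR 4.0.16 (R 4.3.3; TMM, filterByExpr, robust quasi-likelihood F test, Benjamini-Hochberg adjusted p under 0.05), over all genes; SE is the log2 fold change over the square root of F. Alternatives used DESeq2 1.42.0 and limma 3.58.1. The fit was tested on simulated counts. By plain library totals, without the TMM factors, a floor of 3 counts is 1.78 and 1.89 CPM in CTR morulae and 0.114 and 0.117 in CTR FGO. On the TMM scale of the other CPM values, 3 counts are 1.09 CPM in CTR morula library 1 and 0.186 CPM in CTR FGO library 1. Between the 2 morula libraries the log2 ratio had an SD of 0.69 for genes of 20 to 100 counts, 0.37 for 100 to 500 and 0.22 above. With 2 libraries per stage an exact permutation test of a single value cannot go below 0.333, so none is given. Symbols were matched to the RefSeq GRCm38.p6 table for 24056 genes. The members, the 30 gene lists and the rule for named genes were chosen with earlier results of these data known. Named are Pcgf1, Pcgf6, 30 stage genes, the largest changes of each class, up to 5 members of each list by p with up to 2 that go against it, and up to 8 genes whose stage change differs between genotypes; unnamed gene models were left out. Some genes that the rule picks are left out of the text.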

Additional observations from a re-analysis of the deposited data

Results flagged for a closer look

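The stage change of 20 named genes differed between genotypes by the test of the difference itself (edgeR, knockout minus CTR, log2). The stage change was smaller or more negative in the knockouts for 19 of them. Spaca1, Pou3f1, Stx11, Adcy2, Rbm46, Irx2, Msi1 and Oaf were named because this test called them. Their call was thus set by the choice, and the count of 20 does not measure how common such differences are. Over all 14719 genes tested, 386 (2.62%) were called, 56 higher and 330 lower. For genes that rose in CTR the difference was -4.87 for Sgk3, -5.23 for Klf5, -5.61 for Gcnt1, -3.28 for Hk2, -2.17 for Ccdc43, -1.84 for Id2, -2.31 for Gm2a, -5.30 for Sox2, -1.77 for Cdkn1a, -3.05 for Frrs1 and -4.43 for Amotl2. Id2, an inhibitor of helix-loop-helix factors, had 129 and 175 counts in matKO morulae and 394 and 379 in KO FGO, against 357 and 335 in CTR morulae and 235 and 221 in CTR FGO. For genes with few counts in CTR morulae and at most 21 in a CTR FGO library it was -10.5 for Spaca1, -14.0 for Pou3f1, -9.32 for Stx11, -9.96 for Adcy2, -11.4 for Rbm46, -10.6 for Irx2 and -12.1 for Msi1. For Oaf, with 5 and 6 counts in CTR morulae and 62 and 45 in CTR FGO, it was -9.12. Rbm46, an RNA-binding gene of the germ line, had 0 and 0 counts in matKO morulae and 1637 and 1353 in KO FGO, against 0 and 2 in CTR morulae and 17 and 17 in CTR FGO. With 0 counts in a group the fitted values of these genes depend on the prior count and are no bounds. The difference was 8.80 for the targeted Pcgf1, whose morula level cannot be read.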

How the results depend on the processing

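In CTR, 6981 genes were lower; the number was 3358 when only genes with at least 20 counts in each stage were tested and 3244 when only genes with at least 20 assigned reads in CTR ExE were, since both settings test fewer genes. Leaving out each library in turn gave 4122 to 4390 higher and 5425 to 6814 lower genes in CTR, 3681 to 3811 and 5088 to 6560 in the knockouts, and 12 to 227 and 112 to 331 for the difference between genotypes, where the lone library is assumed to vary like the others; the 227 arose without FGO KO replicate 2 and the 12 without FGO CTR replicate 1. DESeq2's Wald test called 250 genes higher for that difference, against 56 with edgeR; the cause was not tested. With the replicate number as a block the counts were 4570 and 6821 in CTR, 4054 and 6646 in the knockouts and 74 and 386 for the difference. Same-numbered libraries shared only a number (correlation of deviations 0.0066 over 13845 genes, with 2 pairs). Of 206 named genes with a test, 183 kept direction and call in each of 17 settings that could test them. Directions turned for Cdh1 (1.19 with library totals, 0.35 with FGO thinned to morula depth, 0.42 with quantile voom), Ldha (-0.18, maternal counts only), Yap1 (0.027) and Suz12 (0.21, both with library totals), Usp16 (0.28 with library totals, 0.21 with quantile), Odf2 (0.62 and 0.018 in these), Oaf (0.71 and 0.48), Odf1 (-0.18 with TMM; 1.23 and 0.78 in these, 0.70 with paternal counts only and, leaving out 1 library, 0.19 without morula CTR replicate 1, with -0.55 the lowest and in the same direction), H1f0 (-0.021 among genes assignable in ExE, -0.23 with paternal counts only) and Stx11 (0.22 with TMM; -0.051 without morula CTR replicate 2 and -0.62 with paternal counts only, with 0.52 the highest when leaving out 1 library and in the same direction); the cause was not tested beyond the shift in scale given above. The quantile scaling and the ExE medians were chosen after seeing the data. Depth limits the low end: 3 counts in a CTR morula library correspond to 1.78 to 1.89 CPM by plain library totals, without the TMM factors.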

Other observations

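Several autosomal genes that fell at least 4-fold had nearly all their morula reads assigned to 1 parent. They were named after their values were seen. Whether variants or near copies of the genes given here affect the parent assigned was not tested, so these shares may not be those of the RNA. On the maternal side, Nudc, a dynein cofactor, had 63 and 67 counts in morulae and 17469 and 18415 in FGO, with 92.1% and 92.5% maternal reads. Hspe1, a mitochondrial chaperonin, had 69 and 63 in morulae and 4925 and 5561 in FGO (97.1% and 98.4% maternal), and Ccna2, cyclin A2, 70 and 76 in morulae and 2620 and 2664 in FGO (98.6% and 100% maternal). On the paternal side, Aig1 had 27 and 27 counts in morulae and 16379 and 14722 in FGO, with 3.70% maternal reads in each library, and Rnaset2a had 37 and 39 in morulae and 2020 and 3746 in FGO with 0% maternal reads. Among genes that rose, Lgals1, a galectin, was 94.1% and 98.9% maternal with 118 and 95 counts in morulae and 25 and 21 in FGO, and Myof, myoferlin, was 2.56% and 2.94% maternal with 78 and 34 in morulae and 16 and 17 in FGO.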
